A study of Mus musculus with 1920 samples.

Results

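The genes described here are 32 genes of G2 phase and mitosis, taken as a fixed list of gene names from the 55471 gene identifiers of the table, of which 35395 had at least 1 read. All 32 were found. They were measured in single intestinal stem cells (ISCs) from the small intestine of 7 mice, 3 labelled young and 4 labelled aged. All mice carried the Lgr5EGFP-ires-creERT2 knock-in allele (B6.129P2-Lgr5tm1(cre/ERT2)Cle/J), in which the Lgr5 locus drives a green fluorescent protein, and single cells with a high signal were sorted. The labels give no age in weeks and name no treatment, so the groups differ in age only as far as the labels go. The sort selects cells in which the Lgr5 locus is active, and cells of the crypt with a low signal are not part of the data.

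Of 1920 sorted cells, 1836 had at least 1000 detected genes and were kept, with a median of 305492 reads and a range over cells of 1695 to 1733912. Young mice 1, 2 and 3 gave 160, 370 and 376 of these cells and aged mice 1, 2, 3 and 4 gave 189, 186, 189 and 366. For shares of cells with a gene, or a number of genes, on, each cell was drawn down to 100000 reads so that the number of reads was equal. The number of detected genes can still differ between cells. This left 1732 cells. Kept cells too shallow for it were 14, 18 and 4 in young mice 1, 2 and 3 and 23, 7, 13 and 25 in aged mice 1, 2, 3 and 4. A gene was called on in a cell when it had at least 1 of those reads. Olfm4, a marker of ISCs, was on in 99.7% to 100% of the cells of each mouse and Lgr5 in 89.8% to 99.1%. Marker lists were compared in all 1836 kept cells without drawing down, so depth can enter there. The list of stem cell markers had the highest mean of 8 marker lists in 70.8% to 92.7% of cells. The remaining cells were led by the markers of another cell type, most often Paneth cells. Those cells were 27.4%, 24.3% and 29.2% of the cells of aged mice 2, 3 and 4, and 7.30% to 13.1% in the other mice. The methods place 384 cells in a sequencing lane, and a code shared by 384 cell names was read as that lane. The labels do not say what the code stands for. Cells were also sorted into plates of 384 wells, so it may stand for a plate, and lane below means this code. Young mouse 3 and aged mouse 4 each filled a lane alone, whereas the other 3 lanes held cells of a young and of an aged mouse.

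A cell that has copied its DNA passes through G2 phase and then divides its chromosomes in mitosis. Entry is driven by the kinase Cdk1 bound to the cyclins Ccna2, Ccnb1 and Ccnb2. Chromosomes are then condensed, attached to the spindle at their kinetochores, pulled apart once the anaphase promoting complex has marked its targets for destruction, and parcelled into daughter cells. Transcripts of these genes build up from S phase on and are removed after division. Lgr5-expressing ISCs at the base of the crypt are known to divide often, and their daughters divide several more times before they differentiate. Transcription of many of these genes is held down in resting cells through a promoter element, the cell cycle genes homology region, and is driven in part through CCAAT boxes bound by the factor NF-Y.

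Promoters were read from RefSeq on GRCm38.p6, the build to which the reads were aligned, and 29 of the 32 genes were matched in the table used here (Ccna2, Aurkb and Tpx2 were not). The window ran from 250 bases before the start site to 50 after it. The letters TTTGAA, searched on both strands, were in the window of 22 of the 29 genes (75.9%) and of 20.2% of 27025 genes of the whole table. CCAAT, searched on both strands, was in 23 of 29 (79.3%), against 41.1% of all genes. Either TTTGAA or TTCGAA together with CCAAT was found in 21 of 29 (72.4%), against 8.61%. A match is a description of these letters and not evidence of binding. The 120 bases before the start site are shown for 4 genes that hold both motifs and differ in how readily they were on in cells, and for Birc5, whose window held no match in this stretch. Each is written 5′ to 3′ along the gene, with these motifs, on either strand, in capitals.
Top2a (chr11:99024190-99024309, minus strand): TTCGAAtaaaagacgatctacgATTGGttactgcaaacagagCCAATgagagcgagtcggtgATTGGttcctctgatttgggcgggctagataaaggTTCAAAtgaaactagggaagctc
Cdk1 (chr10:69352913-69353032, minus strand): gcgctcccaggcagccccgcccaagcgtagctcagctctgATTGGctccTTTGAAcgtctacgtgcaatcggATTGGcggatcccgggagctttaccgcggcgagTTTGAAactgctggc
Kif11 (chr19:37376262-37376381, plus strand): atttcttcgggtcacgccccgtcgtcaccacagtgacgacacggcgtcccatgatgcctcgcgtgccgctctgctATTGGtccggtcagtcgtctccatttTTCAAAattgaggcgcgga
Cdc20 (chr4:118437344-118437463, minus strand): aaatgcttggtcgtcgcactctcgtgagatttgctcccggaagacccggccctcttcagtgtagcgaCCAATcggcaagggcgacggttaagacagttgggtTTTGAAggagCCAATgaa
Birc5 (chr11:117849117-117849236, plus strand): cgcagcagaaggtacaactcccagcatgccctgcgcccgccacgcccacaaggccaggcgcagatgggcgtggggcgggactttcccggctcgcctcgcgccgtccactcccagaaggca

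How many of the 32 genes were on in a cell was examined first. Cells were found along the whole scale, with the most at 32. All 32 genes were on in 423 of 1732 cells (24.4%) and 28 to 32 were on in 636 cells (36.7%). At the other end 0 to 3 were on in 275 cells (15.9%), of which 28 had none. Between 4 and 15 were on in 622 cells (35.9%), and only 199 cells (11.5%) had 16 to 27. The plot of the number of genes on per cell shows a peak at 32 in each of the 7 mice. Cells with 16 or more genes on are called the high cells below, a range cut on these genes themselves and not a cell type, and 66 cells (3.81%) lay near the cut with 14 to 17.

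**Figure D1:**
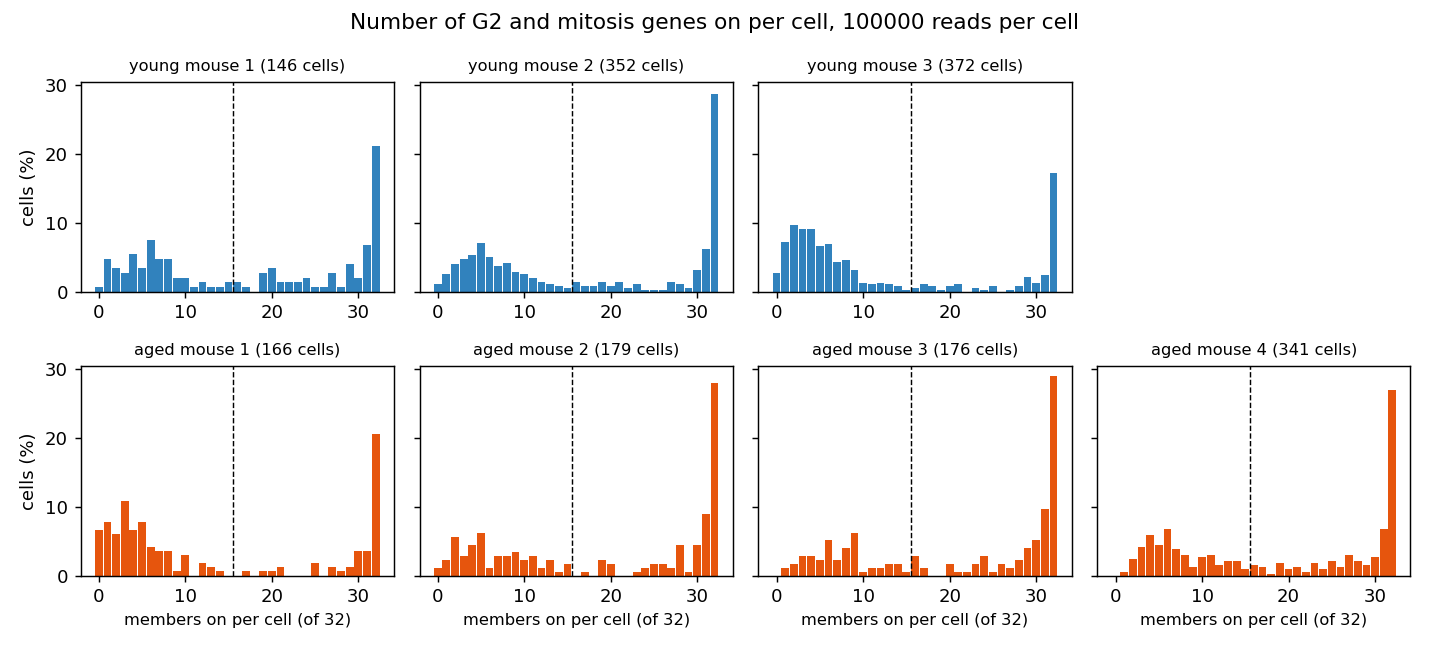
Percent of the cells of each mouse (vertical axis) by the number of the 32 G2 and mitosis genes on per cell at 100000 reads (horizontal axis), with the dashed line at the cut of 16; blue panels are young and orange panels aged mice. The bar at 32 is the tallest in each mouse, between 17.2% of cells in young mouse 3 and 29.0% in aged mouse 3, and young mouse 3 and aged mouse 1 hold most of their cells below 16.

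The genes of chromosome structure were on in most cells. Mki67, which coats mitotic chromosomes and is the standard marker of cycling cells, was on in 85.6%, 82.1% and 67.5% of the cells of young mice 1, 2 and 3 and in 68.7%, 87.7%, 90.9% and 86.8% of those of aged mice 1, 2, 3 and 4. Top2a, the enzyme that untangles copied DNA, was on in 83.6%, 83.2% and 69.4% of cells of the young mice and in 65.7%, 81.6%, 92.6% and 85.6% of those of the aged mice, in the same order. For both genes young mouse 3 and aged mouse 1 were the lowest and aged mouse 3 the highest, and the groups overlapped. Per kilobase of exon, Mki67 had the highest summed level of the 32, at a median over mice of 123 CPM (reads scaled to the library's total) per kilobase, followed by Ccnb2 at 95.2 and Top2a at 70.9, and Aspm had the lowest at 5.21.

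Among the cyclins and their kinase, Ccna2, which acts from S phase on, was on in 53.5% to 79.8% of the cells of a mouse and Cdk1 in 44.4% to 73.3%. Ccnb2 was on in 37.6% to 67.6%. Ccnb1, the main cyclin of mitotic entry, was on in 44.5%, 44.6% and 29.3% of the cells of the young mice and in 36.1%, 50.8%, 57.4% and 47.8% of those of the aged mice. The order from Ccna2 to Cdk1, Ccnb2 and Ccnb1 was thus a falling share of cells, with ranges over mice that overlap between neighbours.

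The 5 mitotic kinases had medians over mice between that of Ccnb1 (44.6%) and that of Cdk1 (63.7%). Bub1b, a checkpoint protein of the kinetochore, was on in 40.1% to 65.3% of the cells of a mouse, Plk1 in 37.9% to 62.5%, Aurkb in 30.6% to 61.9%, Bub1 in 28.2% to 55.3% and Aurka, the kinase of the spindle poles, in 29.6% to 55.1%. The partners of Aurkb in the chromosomal passenger complex differed from it, with Cdca8 on in 48.4% to 75.6% and Birc5 in 32.5% to 64.2%. Of the genes that act with the anaphase promoting complex, Ube2c, which passes ubiquitin to it, was on in 43.0% to 70.5% of cells and Cdc20, its activator, in 32.3% to 61.4%.

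The genes of the centromere and kinetochore spanned a similar range. Knl1, Cenpe, Cenpf, Cenpa and Nuf2 were on in 38.2% to 69.9%, 34.9% to 66.5%, 34.7% to 65.9%, 33.6% to 60.9% and 28.5% to 56.2% of the cells of a mouse. The 3 genes of the central spindle and cytokinesis, Prc1, Racgap1 and Kif23, were on in 38.6% to 73.9% of cells over all mice. Among the 9 spindle motors and microtubule binders, Tacc3 was on in 45.8% to 69.3% of cells, and Kif2c, a motor that takes microtubules apart, in 37.7%, 40.3% and 24.2% of cells of the young mice and 32.5%, 44.1%, 48.9% and 45.2% of those of the aged mice. Kif2c had the lowest median over mice of the 32 genes at 40.3%, and Mki67 the highest at 85.6%. In the plot of shares by gene, young mouse 3 and aged mouse 1 were the lowest 2 mice for 32 of 32 genes. Aged mouse 3 was the highest for 29. The median number of detected genes in the drawn-down cells was also lowest in young mouse 3 (7573.5) and aged mouse 1 (7724). In the other mice it ran from 7740 in young mouse 1 to 8430 in aged mouse 2. Whether detected genes per cell bear on the order of the mice was not tested.

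**Figure D2:**
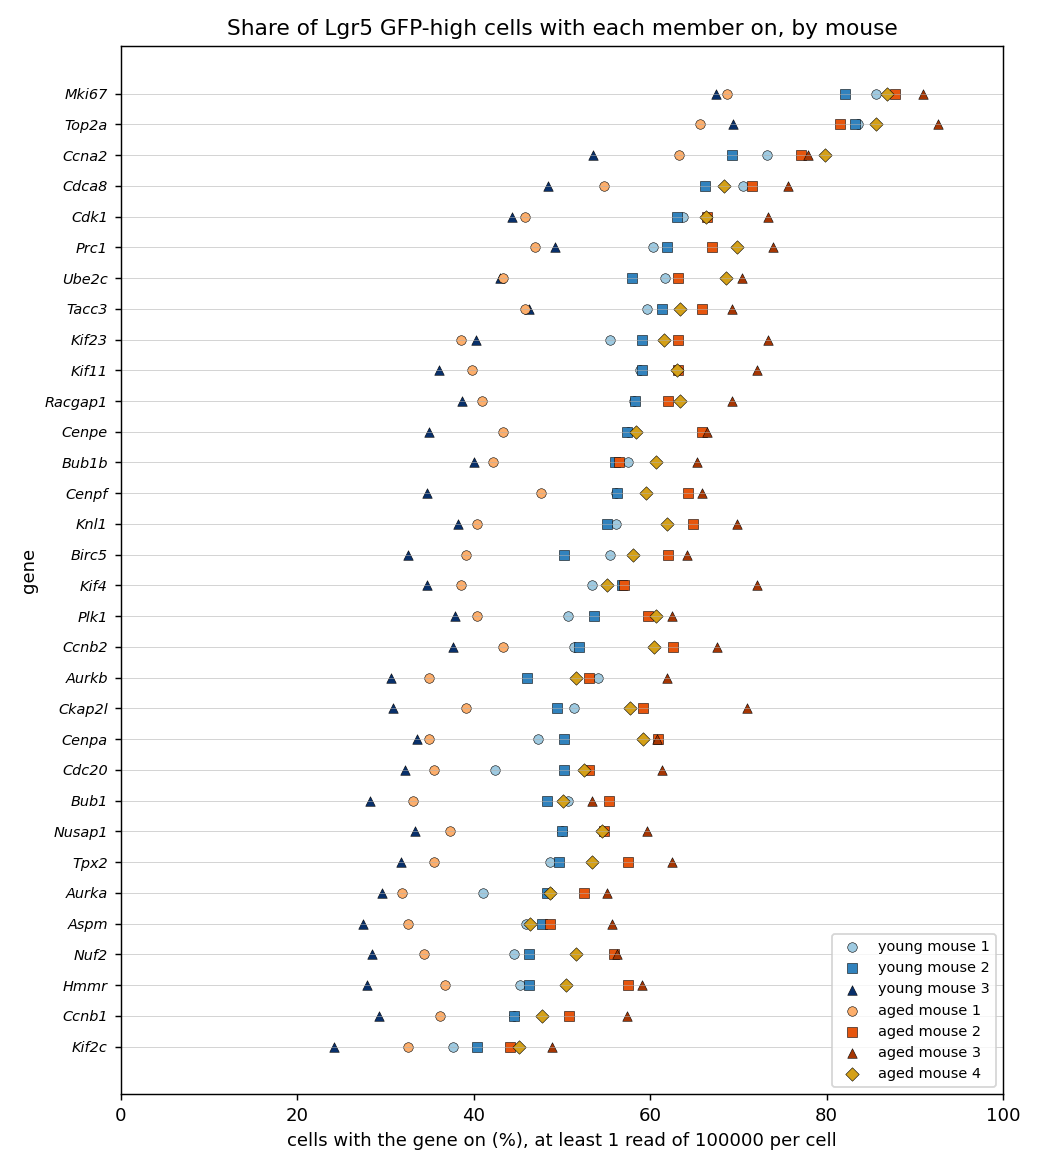
Percent of cells with each gene on at 100000 reads per cell (horizontal axis), 1 row per gene ordered by the median over mice and 1 symbol per mouse, blue for young and orange to yellow for aged. Young mouse 3 and aged mouse 1 lie to the left of the other 5 mice in every row, and aged mouse 3 lies farthest right in 29 of 32.

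The genes differed in how soon they were on as the others came on. Each gene was scored over cells grouped by how many of the other 31 were on. With 0 to 3 others on, Top2a was on in 44.5% of cells, Mki67 in 40.1%, Ccna2 in 31.0%, Cdca8 in 21.8% and Prc1 in 20.8%, whereas Bub1, Nuf2 and Kif2c were each on in under 1% (0.722% for Bub1) and Ccnb1 in 1.1%. With 4 to 15 others on, Mki67 was on in 76.1%, Top2a in 72.1% and Ccna2 in 50.3% of cells, and the median gene in 20.2%. With 16 to 27 others on, Mki67 and Top2a were on in 99.5%, and Aurka in 38.0%, Kif2c in 38.2%, Aspm, a protein of the spindle poles, in 46.5% and Ccnb1 in 52.4%. With 28 to 31 others on the lowest share was 89.8%, for Kif2c. Mki67 and Top2a were therefore on in many cells that lacked nearly all other genes of the list, and Aurka, Kif2c, Aspm and Ccnb1 were missing from many cells that had most of them. Whether the level of a gene sets these shares was not tested. Ccna2, Cdca8 and Prc1 share exon bases with a gene on the other strand that had reads. Whether such reads enter their shares was not tested.

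Co-expression was measured within each mouse on log2(CPM + 1) over all kept cells, and is given as a description with no test. The median of Pearson's r over all pairs was 0.736, 0.806 and 0.777 in young mice 1, 2 and 3, and 0.782, 0.789, 0.736 and 0.752 in aged mice 1, 2, 3 and 4. Cells within a mouse share the animal and, except in young mouse 2, the lane. Of 16995 other genes with reads in at least 5% of cells the median r with the mean of the 32 was 0.0734. Each gene was also set against the mean of the other 31. Hmmr, a protein that binds spindle microtubules, followed the others most closely (mean r over mice 0.927, range 0.903 to 0.950), then Ckap2l (0.916) and Birc5 (0.907). Cdca8 followed them least (0.817), with Tacc3 and Cdk1 at 0.826.

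Some pairs stood closer than others. Ccnb1 and Hmmr had the highest mean r of all pairs at 0.877 (0.830 to 0.923 over mice), and Ccnb2 and Cenpf, a kinetochore protein, had 0.871 (0.833 to 0.903). Top2a and Cenpa had the lowest at 0.661 (0.620 to 0.711), and Top2a and Cdc20 had 0.662. The 8 weakest pairs all held Cdc20, Cenpa or Ccnb2 on one side and Top2a, Cdk1, Mki67 or Tacc3 on the other. In the map of pair correlations Cenpa was close to Ccnb1 and Ccnb2 and far from Top2a and Cdk1.

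**Figure D3:**
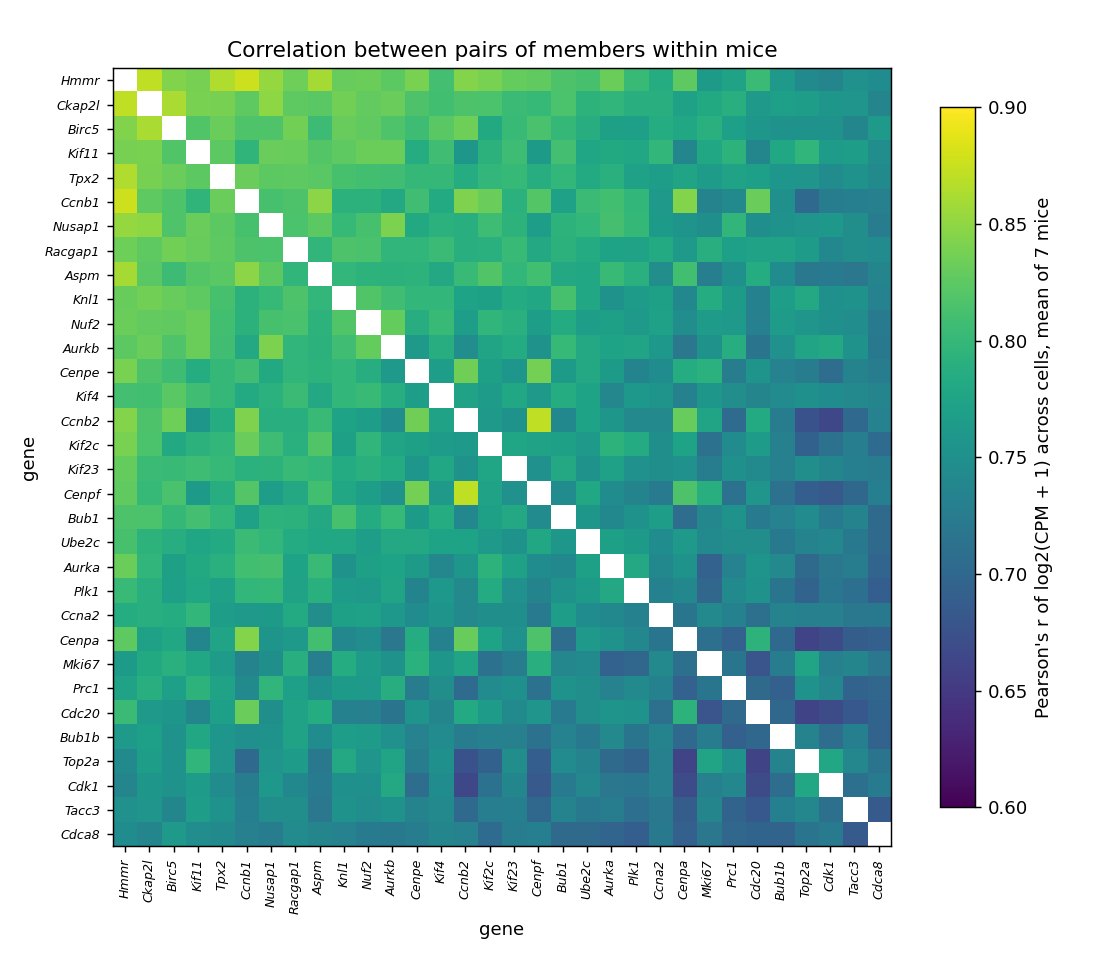
Mean over 7 mice of Pearson's r between each pair of the 32 genes across the cells of a mouse, on log2(CPM + 1), with genes on both axes ordered by their r with the mean of the other 31. The colour scale runs from 0.6 to 0.9, all pairs lie between 0.661 and 0.877, and the darkest cells pair Top2a and Cdk1 with Cenpa, Cdc20 and Ccnb2.

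Outside the list, the 10 genes with the highest mean r with the mean of the 32 were Anln (0.888), Cdca3 (0.883), Sgo2a, Pbk, Melk, Iqgap3, Cdca2, Kif22, Spc25 and Dlgap5 (0.862). Of these 10, 9 were on a second list of 57 genes of G2 and mitosis, and Iqgap3 was on none of the lists. The median r over those 57 genes was 0.785. Over 33 S-phase genes it was 0.241, and over 18 stem cell markers it was 0.0196. The genes with the most negative r were ENSMUSG00000030695 (Aldoa, a symbol that more than a single identifier carries) at -0.369, Rnase1 at -0.327 and Fam57b at -0.283, and r was below -0.2 for 22 of the 16995 genes.

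The other phases of the cycle were followed in cells grouped by the number of the 32 genes on. The S-phase genes were highest in cells that had part of the list on. The median over cells of their mean log2(CPM + 1) was 2.34 with 0 to 3 genes on, 4.19 with 4 to 15, 6.03 with 16 to 27 and 5.12 with 28 to 32. The median with 16 to 27 on was above that with 28 to 32 in 6 of 7 mice, the exception being aged mouse 2 at 4.27 and 5.53. The second list of G2 and mitosis genes, by contrast, was highest with 28 to 32 on in 7 of 7 mice, at a median of 6.16 against 3.60 with 16 to 27. The list of G1 and cell cycle exit genes was also highest with 28 to 32 on in 7 of 7 mice. Its medians were 3.71, 3.96, 4.12 and 4.44 from 0 to 3 up to 28 to 32 genes on. The stem cell markers had medians of 7.66, 7.65, 7.14 and 7.42. They were higher with 16 to 27 on than with 4 to 15 in 1 of 7 mice, and higher with 28 to 32 than with 0 to 3 in 1 of 7. Within them the median level of Lgr5 was 9.00, 8.63, 7.38 and 7.97 on the same scale, and that of Olfm4 14.03, 14.04, 13.56 and 13.72. The median of the enteroendocrine, tuft, immune and stromal lists was 0 in each of these groups of cells.

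**Figure D4:**
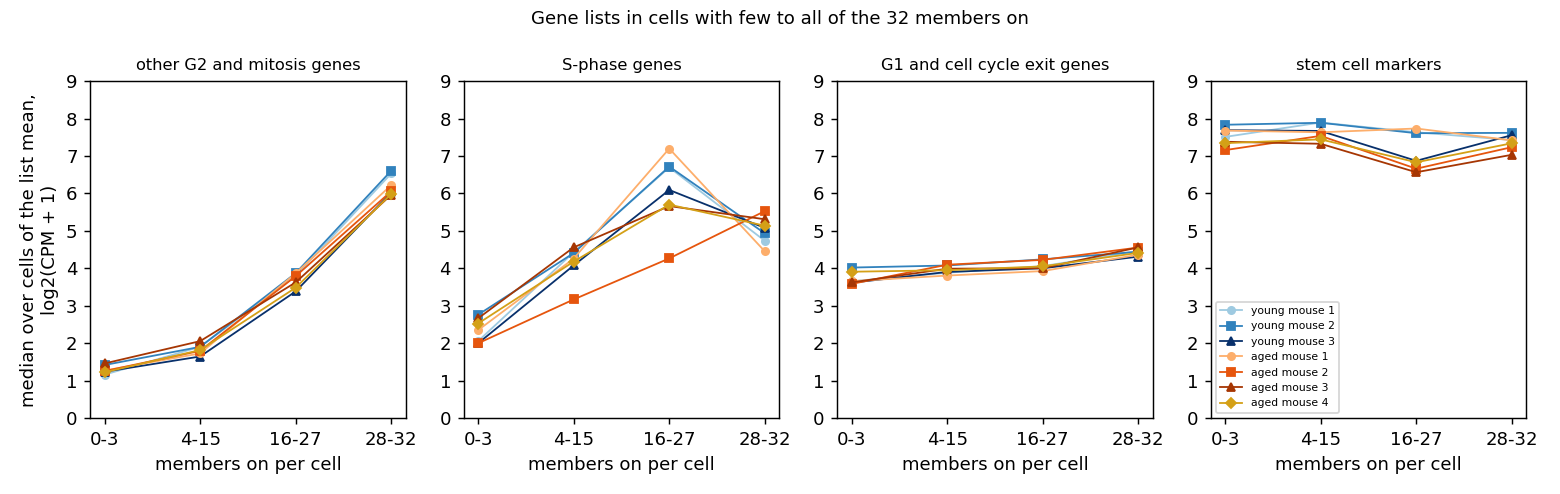
Median over the cells of each mouse of the mean log2(CPM + 1) of 4 gene lists (vertical axis), in cells with 0 to 3, 4 to 15, 16 to 27 and 28 to 32 of the 32 genes on (horizontal axis), 1 line per mouse. The second G2 and mitosis list and, less steeply, the G1 and cell cycle exit list climb to the right in 7 of 7 mice. The S-phase list peaks at 16 to 27 in 6 of 7, and the stem cell markers stay between 6.57 and 7.89.

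High cells were then compared with the other cells of the same mouse, on counts summed per mouse and class (14 sums) with the mouse as a block. The 32 genes define the classes, so their differences are a description: they ran from 3.54 for Cdk1 to 7.62 for Ccnb1 on the log2 scale. A gene outside the list that follows it closely across cells differs between the classes for the same reason. Over all genes tested, these 32 among them and all called higher, edgeR's quasi-likelihood test called 1533 of 21656 higher (7.08%) and 971 lower (4.48%) at a Benjamini-Hochberg adjusted p under 0.05. The high cells had more detected genes at the same 100000 reads in 7 of 7 mice, by 558.5 to 1335 genes in the median. Whether this bears on the calls was not tested.

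Of the second list of G2 and mitosis genes, 56 of 57 were higher in the high cells, against 7.08% of all genes. Anln, which shapes the cleavage furrow, had 81.9 to 117 CPM in the high and 0.980 to 3.40 CPM in the other cells of the 7 mice, a log2 difference of 5.88 (SE 0.26, edgeR adjusted p = 6.3e-07). Pbk, a mitotic kinase, rose by 4.93 (SE 0.36, edgeR adjusted p = 1.3e-05) and Cdca3 by 4.73 (SE 0.39, edgeR adjusted p = 3.0e-05). Neither class overlapped the other for these 3 genes. For Anln, Pbk and Cdca3 the mean r over mice with the mean of the class-defining genes was 0.888, 0.867 and 0.883. The median over the second list was 0.785. A cut on the defining genes thus also divides cells by the genes that follow them. The differences and p-values of this list are therefore a description and not separate evidence. The gene that did not pass was Pttg1, which encodes securin, at a log2 difference of 0.19 (edgeR adjusted p = 0.353).

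Of the 33 S-phase genes, 25 were higher in the high cells and 1 was lower, against 7.08% and 4.48% of all genes. Rrm2, a subunit of the enzyme that makes deoxynucleotides, had 60.7 to 115 CPM in the high and 1.94 to 15.7 CPM in the other cells, a rise of 3.94 (SE 0.39, edgeR adjusted p = 0.00011). Clspn, an adaptor of the replication checkpoint, rose by 2.84 (SE 0.32, edgeR adjusted p = 0.00023), Tyms, which makes thymidylate, by 1.44 (SE 0.14, edgeR adjusted p = 8.3e-05) and Pcna, the sliding clamp, by 0.76 (SE 0.08, edgeR adjusted p = 0.00016). All 4 were higher in the high cells of 7 of 7 mice. Their mean r over mice with the mean of the class-defining genes was 0.601, 0.608, 0.452 and 0.200, in the order named. The p-values of those that follow the defining genes closely are a description here too. Ung, a repair glycosylase, was lower in 7 of 7 mice by -0.82 (SE 0.14, edgeR adjusted p = 0.0034). With the cut at 22 genes in place of 16, only 10 of the 33 were called higher and Pcna was not (0.46, edgeR adjusted p = 0.056), and with the cut at 10 the call of Ung was lost (-0.33, edgeR adjusted p = 0.336).

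Genes of G1 phase and of cell cycle exit went both ways, with 6 higher and 2 lower of 18 tested, against 7.08% and 4.48% of all genes. Cdkn2d, an inhibitor of G1 kinases, had 16.7 to 27.3 CPM in the high and 0.620 to 2.96 CPM in the other cells, a rise of 4.20 (SE 0.29, edgeR adjusted p = 9.3e-06). Its mean r with the mean of the class-defining genes was 0.596, so its p-value is a description as well. Rbl1, a relative of the retinoblastoma protein, rose by 1.22 (edgeR adjusted p = 9.9e-05) and Cdkn1b by 0.42 (edgeR adjusted p = 0.0090). The other 3 that rose were Cdkn2c, Ccng1 and Ccng2. Cdk6, a kinase of G1 phase, was lower by -0.64 (edgeR adjusted p = 0.00042) and its cyclin Ccnd1 by -0.40 (edgeR adjusted p = 0.0043). Both were lower in the high cells of 7 of 7 mice. More of the list named for G1 and exit was thus higher than lower in the high cells. The genes that passed as higher were inhibitors, a retinoblastoma relative and cyclins G.

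Of the 18 stem cell markers, 12 were lower in the high cells and 0 higher, against 4.48% of all genes lower. Lgr5 had a lowest, median and highest value of 129, 267 and 322 CPM in the high cells of the 7 mice, and of 283, 397 and 578 CPM in the other cells. It was lower in the high cells of 7 of 7 mice, although the ranges overlapped, by -0.71 on the log2 scale (SE 0.08, edgeR adjusted p = 0.00034). Tnfrsf19, a receptor and Wnt target, was lower by -0.87 (SE 0.12), Slc12a2, an ion cotransporter, by -0.65 (SE 0.07), Rnf43, which removes Wnt receptors from the surface, by -0.50 (SE 0.06) and Olfm4 by -0.37 (SE 0.04), each in 7 of 7 mice with an edgeR adjusted p between 0.00015 and 0.00085. Aqp4, a water channel, did not pass at 0.07 (SE 0.06, edgeR adjusted p = 0.538). The other 7 that were lower were Ephb3, Sox9, Igfbp4, Znrf3, Rgmb, Smoc2 and Prom1. These are differences in summed counts. Cell by cell on log2(CPM + 1), r with the mean of the 32 genes was weak. For the mean of the 18 markers it was -0.098 to 0.193 over mice, above 0 in 3 of 7, and for Lgr5 -0.198 to 0.071. Lgr5 was on in 97.2% of the high cells led by those markers and in 98.3% of the other cells they led.

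Lineage markers were called in few cases. Of 12 enterocyte markers, 4 were lower in the high cells, Lct, Sis, Anpep and Slc5a1, against 4.48% of all genes. Anpep, a peptidase of the brush border, was lower by -0.72 (SE 0.13, edgeR adjusted p = 0.0057) and Slc5a1, a glucose transporter, by -0.55 (SE 0.07, edgeR adjusted p = 0.00059). With edgeR none of 8 Paneth, 9 goblet, 8 enteroendocrine and 7 tuft markers passed, with 2, 9, 8 and 3 of them above 0 and 0, 0, 1 and 0 at an unadjusted p under 0.05. DESeq2 called 1 enteroendocrine marker higher. In cells led by stem cell markers alone edgeR called 2 enteroendocrine markers higher and 1 Paneth marker lower, and 1 of the 9 goblet markers was above 0 (median -0.62, beside 0.91 in the main comparison). The other genes named by size were, on the higher side, Gip, Hist1h3b, Ska1, Hist1h1b and Hist1h2ab. Ska1, a kinetochore gene, had 15.7 to 26.1 CPM in the high cells and 0 to 0.706 CPM in the other cells. The 3 replication-dependent histone genes belong to a family of near-identical copies, among which the counting could divide reads. Gip, an incretin hormone, was at 0 in aged mouse 1 and reached 374 CPM in aged mouse 3, and 3 cells held 86.4% of its reads. On the lower side were Cyp2b10 and Cyp3a11, xenobiotic enzymes, Fam20c, a kinase of secreted proteins, Abca1, a cholesterol exporter, and N4bp2l1, by -1.72 to -1.97, each in 7 of 7 mice. In cells led by stem cell markers alone the calls of Cyp2b10 (-2.76, edgeR adjusted p = 0.112) and Cyp3a11 (-0.51, edgeR adjusted p = 0.813) were lost, and that of Cyp3a11 was also lost without young mouse 2 (-1.65, edgeR adjusted p = 0.057), young mouse 3 (-1.78, edgeR adjusted p = 0.071), aged mouse 1 (-1.82, edgeR adjusted p = 0.051) or aged mouse 3 (-1.75, edgeR adjusted p = 0.057).

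Cells led by the markers of other lineages also held the list. Among cells led by stem cell markers 689 of 1475 (46.7%, exact 95% interval 44.1% to 49.3%) were high cells, among those led by Paneth markers 62 of 125 (49.6%, 40.5% to 58.7%), by enterocyte markers 44 of 76 (57.9%, 46.0% to 69.1%) and by goblet markers 31 of 41 (75.6%, 59.7% to 87.6%). The intervals cover counting error only and treat cells as independent. Lgr5 was on in 96.8%, 79.5% and 90.3% of the high cells led by Paneth, enterocyte and goblet markers. The leading list of a cell therefore does not by itself name its type. Of the 41 cells led by goblet markers 12 came from young mouse 3, and 12 of these 12 were high cells. Enteroendocrine and tuft markers led 6 and 9 cells, of which 4 and 5 were high. Doublets were not called in these sorted single cells, and their part in the counts was not tested.

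Aged and young mice were compared with the mouse as the replicate. None of the 32 genes passed the test. Mki67 was at 1237, 1566 and 540 CPM in young mice 1, 2 and 3 and at 932, 1333, 1559 and 882 CPM in aged mice 1, 2, 3 and 4. Ccna2 was at 124, 168 and 83.3 CPM in the young and at 120, 165, 176 and 151 CPM in the aged mice. For both genes young mouse 3 was the lowest and the groups overlapped, as they did for all 32, whereas 5.92% of all genes had groups apart. On these sums edgeR's quasi-likelihood test called 0 of 20957 genes (0%) at an adjusted p under 0.05, and 0 of the 32 were among the 1098 genes (5.24%) whose unadjusted p was under 0.05. DESeq2 called 177 genes, again with 0 on the list. In bulk sums, fewer cells with a transcript and less RNA per cell cannot be told apart, and the shares of cells were therefore compared too.

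The log2 fold changes of the 32 genes, aged against young, ran from -0.03 for Cdc20 (SE 0.29) to 0.37 for Nuf2 (SE 0.26), and the lowest adjusted p was 1.00. Ccna2 was at 0.36 (SE 0.24), Mki67 at 0.14 (SE 0.34) and Top2a at 0.06 (SE 0.28). The SEs of the 32 were between 0.23 and 0.41, so that each gene lay within 2 SEs of 0. The median was 0.15 beside 0.01 over all genes, and 27 of 32 were above 0, against 51.7% of all genes. The 32 genes move together across mice and are not separate observations. The median changed sign without young mouse 3 (-0.10, with 8 of 32 above 0), without aged mouse 3 (-0.03) and with sequencing lane as a block (-0.16, with 3 of 32 above 0), and reached 0.41 without young mouse 2 and 0.29 without aged mouse 1. It was 0.08 without TMM scaling. In the fit with lane as a block young mouse 2 entered as 2 sums treated as separate. Young mouse 3 and aged mouse 4, each alone in a lane, did not inform the age difference there. Of the second list of 57 G2 and mitosis genes 0 were called, 44 were above 0 and the median was 0.15, and of the 33 S-phase genes 0 were called, 22 were above 0 and the median was 0.03. In the same fit edgeR called 0 markers of other cell types, whereas DESeq2 called 2 enterocyte and 1 enteroendocrine marker higher. Of the enterocyte markers 11 of 12 were above 0 (median 1.51) and 8 had an unadjusted p under 0.05, and of the enteroendocrine markers 6 of 8 were above 0 (median 1.84) and 4 had such a p. Above 0 were also, of the goblet markers, 9 of 9 (0.93), of the Paneth markers 7 of 8 (0.43) and of the stem cell markers 3 of 18 (-0.17). In cells led by stem cell markers alone the median of the 32 genes was 0.23, with 32 of 32 above 0.

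The share of cells with a gene on had a higher mean in the aged mice for 32 of 32 genes, against 59.1% of all genes, by 2.65 percentage points for Top2a to 12.9 for Ckap2l and a median of 7.85. For 0 of 32 genes were the aged and young mice apart, against 6.18% of all genes. The lowest p of a member was 0.171 for Ccnb2 in an exact two-sided permutation test over 35 divisions of the mice, which cannot give less than 0.0286, and after Benjamini-Hochberg adjustment over 20957 genes it was 0.913. Over all genes 640 had an unadjusted p under 0.05 and the lowest adjusted p was 0.895. Without aged mouse 1 the 3 remaining aged mice lay above the 3 young mice for 25 of 32 genes, against 11.4% of all genes, and the median difference was 13.1 percentage points. Without young mouse 3 it was 2.11. Whether the number of detected genes per cell bears on these differences in share was not tested.

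High cells made up 53.4%, 50.6% and 30.4% of the cells of young mice 1, 2 and 3 and 35.5%, 57.0%, 64.8% and 56.0% of those of aged mice 1, 2, 3 and 4. The mean was 53.3% ± 12.5 (SD, n = 4) in the aged and 44.8% ± 12.6 (SD, n = 3) in the young mice, a difference of 8.54 percentage points that was smaller than the spread within either group. It was 1.33 without young mouse 3 and 14.5 without aged mouse 1. In the 3 lanes that held both groups the aged cells were 13.9 points lower, 11.3 points higher and 5.30 points higher than the young cells. Of these lanes, 2 each held a part of the cells of young mouse 2, in which high cells were 49.4% and 51.7%, so the lanes hold 2 young mice and not 3. Aged mice 2, 3 and 4, which held more cells not led by stem cell markers than aged mouse 1, also held more high cells. Young mice 1 and 2 held 13.1% and 7.30% of such cells, with 53.4% and 50.6% high cells. Whether these cells, or the number of detected genes per cell, bear on the difference was not tested. Among cells led by stem cell markers alone the difference was 10.2 percentage points, and among the other cells, of which single mice gave as few as 13, it was -3.71.

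**Figure D5:**
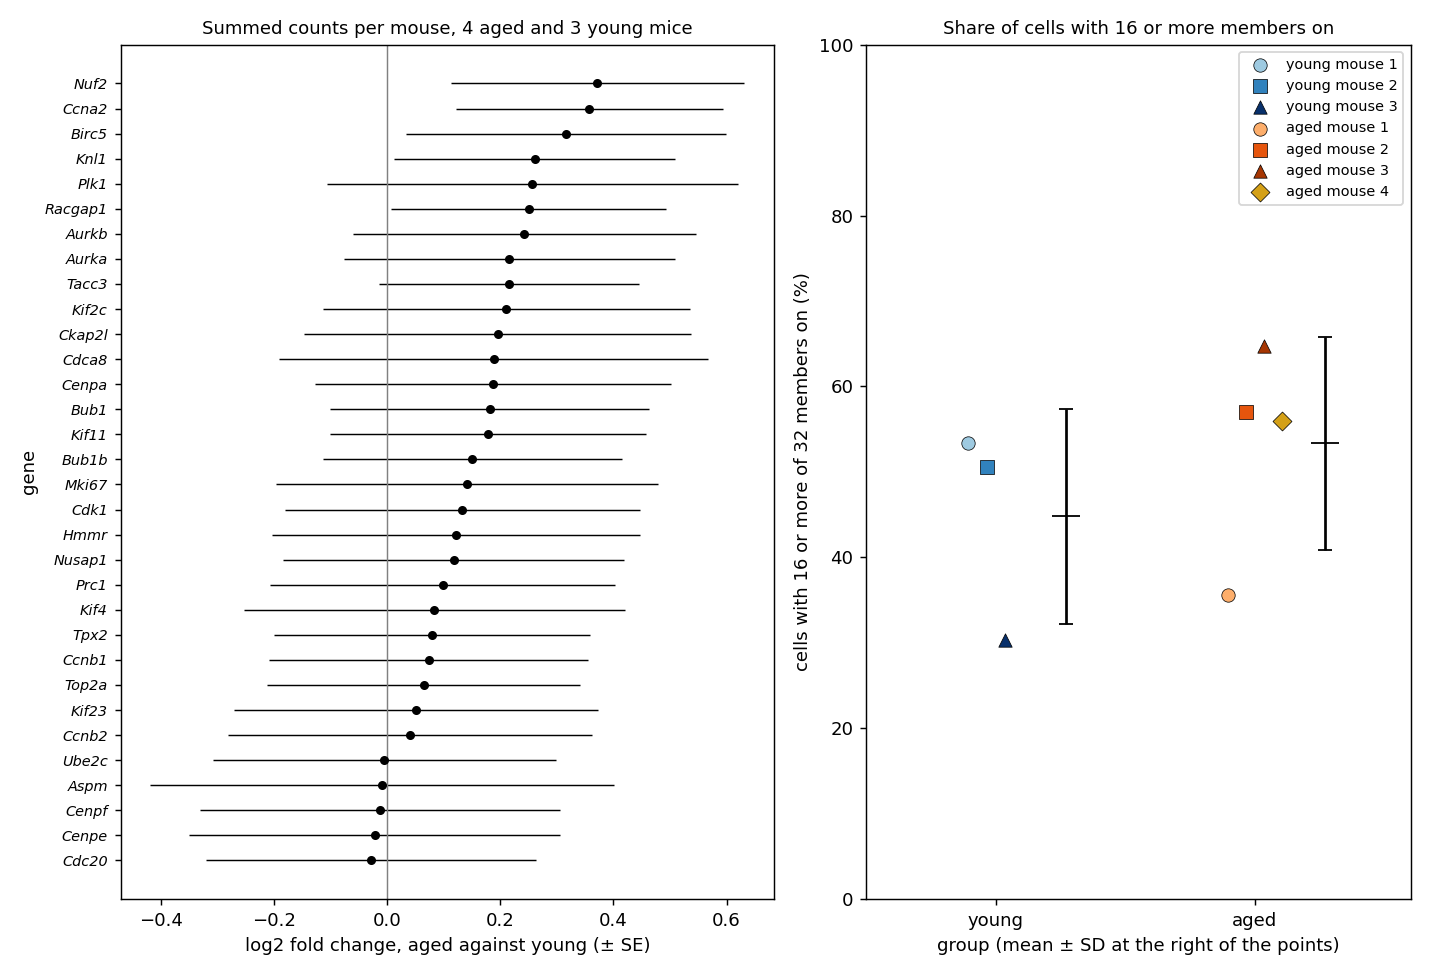
Left, log2 fold change of each of the 32 genes, aged against young, from summed counts of 4 aged and 3 young mice (horizontal axis; points are edgeR estimates and bars their SE). Right, percent of cells with 16 or more of the 32 genes on in each mouse, with the mean and SD of each group beside the points. The estimates run from -0.03 to 0.37 with 0 genes called, and young mouse 3 (30.4%) and aged mouse 1 (35.5%) lie below the other 5 mice.

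The difference between high and other cells was also compared between the age groups, as an interaction in edgeR's quasi-likelihood fit. It called 0 of 21656 genes (0%) and 672 (3.1%) had an unadjusted p under 0.05, among them 1 of the 32. DESeq2 called 10 genes, 0 of them on the list. The median interaction of the 32 was -0.14, and 14 of 32 were above 0. The median pair correlation over all cells had a mean of 0.765 over the aged and 0.773 over the young mice.

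Some counts of these genes may hold reads of a neighbour. Of the 32 genes, 10 share exon bases with a gene on the other strand, among them Ccna2 with Exosc9, Cdc20 with Elovl1, Kif4 with Pdzd11 and Prc1 with Rccd1, and whether the counting used strand is not given in the sources used here. Top2a overlaps a small nucleolar RNA gene that had 0 reads. Pseudogenes named after a member took few reads, 1132 for Ccnb2-ps (1.18% of those of Ccnb2) and 270 for Ccnb1-ps (0.516% of those of Ccnb1). No kept cell had the same counts as another.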

How the data were processed

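Single Lgr5 GFP-high cells were sequenced by a Smart-seq2 protocol without molecular identifiers. Per the labels and methods, the authors mapped the reads to GRCm38 and deposited whole-number counts of reads for each gene in each cell, not normalized. The submitters' processing notes name HISAT2 and HTSeq. Annotation and strand setting of the counting were not given in the sources. Of 55471 gene identifiers 55144 were given a symbol, and the others held 0.0307% of reads. Cells with under 1000 detected genes (84) were left out. Shares of cells with genes on used 1732 cells thinned to 100000 reads, with 104 cells too shallow. The leading marker list of a cell was read from its unthinned counts. Intervals and shares cover counting error only.

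Counts were summed per mouse, and per class for the class comparison, and tested with edgeR 4.0.16 (quasi-likelihood test after TMM scaling and filterByExpr, adjusted by Benjamini-Hochberg over all genes tested, threshold 0.05), with DESeq2 1.42.0 as an alternative, in R 4.3.3. Shares were compared with exact permutation tests in Python 3.11.15. In the labels each sample is a single cell and a characteristic names its mouse, which was taken as the replicate.

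The members and the lists were chosen with earlier results of these data known. Named genes were the 32, examples with a high level or a large change per list, the 10 non-members with the highest r, and the 5 highest and 5 lowest called genes of at least 10 CPM outside the lists. Pttg1 and the genes of the weakest and strongest pairs were named after their values were seen. Alternatives were other tools, scaling, filters, thinning, cuts at 10 and 22 genes, at least 3 reads, a pseudocount of 10, lane or replicate number as a block, stem-led cells only and each mouse left out. Cells not led by stem cell markers were added after the data were seen. The scripts were tested on simulated data. A result for a marker gene in the class comparison is not reported here.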

Additional observations from a re-analysis of the deposited data

Results flagged for a closer look

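The aged mice were searched for a mouse far from the other 3 in 66 measures (shares and CPM of the 32 genes, the share of high cells and the median pair correlation) by Dixon's test, which flags about 1 in 20 by chance. The test flagged 3 of the 66, near that 1 in 20, each with aged mouse 1 below the other aged mice. Aged mouse 1 was the lowest aged mouse in the shares of 32 of 32 genes, and the 3 are those that passed the cutoff. Cenpa was on in 34.9% of its cells against 59.2% to 60.9% in the other aged mice. Plk1 was on in 40.4% against 59.8% to 62.5%, and Ccna2 in 63.3% against 77.1% to 79.8%. The 32 genes move together, so these are not separate events. The 3 young mice were not searched in this way, and young mouse 3 was as low.

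The 84 cells left out for under 1000 detected genes were used in no comparison of the report, and entered only an alternative fit of aged against young mice on all cells, which called 0 genes. Of them, 48 (57.1%) had a read of at least 1 of the 32 genes, at a median of 430.5 reads per cell, and 1 had 16 genes on.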

How the results depend on the processing

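The 32 genes were called in 0 alternatives of the comparison of aged with young mice. The count of all genes called there was 0 in the main test and 177 with DESeq2, 22 without a filter, 5 in thinned counts, 1 with lane as a block and 0 to 8 with a mouse left out. The replicate numbers did not pair the mice (correlations of deviations of -0.016, 0.107 and -0.110), and with the replicate block 2 genes were called, 0 of them on the list. The median fold change of the 32 ran from -0.10 to 0.41 with a mouse left out. Single fold changes reversed with lane as a block (Mki67 -0.16, Top2a -0.18), in thinned counts (Top2a -0.017), with the replicate block (Cdc20 0.014) and in stem-led cells (Cdc20 0.029). With a mouse left out they ran from -0.18 to 0.43 for Mki67, -0.16 to 0.29 for Top2a and -0.31 to 0.21 for Cdc20. The share of cells on ran from -0.34 to 10.1 percentage points for Mki67 and -2.03 to 7.88 for Top2a, and the share of high cells from 1.33 to 14.5. The number of the 32 genes with shares apart was 0 except without aged mouse 1 (0 to 25). Pair correlation was 0.813 with a pseudocount of 10 and 0.764 to 0.779 with a mouse left out. High against other cells gave 3936 genes with DESeq2, 4124 in thinned counts and 1665 to 2552 with a mouse left out (1665 without young mouse 2, beside 2504), S-phase genes higher were 10 with the cut at 22, and enterocyte markers lower 4 to 7. The interaction gave 10 genes with DESeq2 and 1 without a filter. Causes of these changes were not tested. At 100000 reads a share counts cells with at least 1 read, so a gene that is not on in a cell may still be expressed there.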
